A study of Homo sapiens with 9 samples.

Results

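The transcripts described here are those of the oxidative stress regulator NRF2, encoded by NFE2L2, of its inhibitor KEAP1 and of 7 genes known as NRF2 targets: GCLC, GCLM, HMOX1, NQO1, TXNRD1, TXN and SRXN1. These 9 genes were chosen by name, with earlier results of these data known, out of 61544 listed genes. All 9 passed the filter on low counts that left 14727 genes for testing. They were measured by RNA-seq of polyadenylated RNA in 9 libraries of HMC3, a microglial line of human origin that was immortalized with SV40 large T antigen. VEH cells (n = 3) received DMSO alone, SLO ½ cells (n = 3) received SBI-0206965 at 5 µM, O-151 at 0.5 µM and Lopinavir at 0.5 µM, and SLO cells (n = 3) received the same compounds at 10, 1 and 1 µM, in every group for 6 days. SBI-0206965 inhibits the autophagy kinase ULK1, O-151 inhibits the DNA glycosylase OGG1, and Lopinavir, an HIV protease inhibitor, blocks the maturation of Lamin A. All groups share 1 cell line of wild-type genotype, the compounds were given only as a mixture, and the labels do not say whether the replicates were separate cultures, so the p-values below measure the spread between these libraries, which may be technical.

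NRF2 is controlled mainly at the level of its protein. In resting cells KEAP1 holds NRF2 and presents it to the CUL3 ubiquitin ligase for degradation, and when cysteines of KEAP1 are modified by oxidants NRF2 escapes, enters the nucleus, pairs with a small MAF protein and binds antioxidant response elements near genes for glutathione synthesis, thioredoxin reduction, quinone detoxification, NADPH supply and heme breakdown. BACH1 competes for the same elements as a repressor. The autophagy receptor SQSTM1 (p62) binds KEAP1 and can take it away from NRF2. The comparisons below ask how the RNA of this circuit stood in SLO and SLO ½ against VEH, and in SLO against SLO ½. RNA levels do not measure NRF2 protein or its location.

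Libraries held 14834295 to 19674841 reads on genes, and no pair of replicates was identical. The defining microglial markers were near absent: P2RY12 had no read in any library, 9 of the 11 microglial markers failed the filter on low counts, and the summed level of the list was 1.46 to 2.52 TPM (reads scaled for gene length and library size) in VEH, 4.11 to 6.31 with SLO ½ and 4.80 to 5.13 with SLO. Markers of other brain and stromal cells, of which 6 of 11 were tested, summed to 1230 to 1470 TPM in VEH. With SLO ½ the sum was 1430 to 1450 and with SLO 1780 to 1870, mostly from the collagen gene COL1A1. Of the astrocyte markers, AQP4 had no read in any library and GFAP at most 5. SLC1A3 was read in all 9 libraries and rose 1.82-fold in SLO ½ and 2.26-fold in SLO (edgeR adjusted p = 1.97e-09 and 8.13e-13). Both marker lists moved with treatment, and their part in the results below was not tested. In bulk RNA, fewer cells of a kind and less RNA per cell cannot be told apart.

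RefSeq (GRCh38.p14) gave 11 upstream windows for 8 of the 9 genes, and the antioxidant response element is shown here because it is the sequence that NRF2 binds. The core searched was TGACNNNGC on both strands, in the 250 bases before and 50 bases after each start. It was present in 4 of the 11 windows, against 13.3% of all 35116 windows, and the related AP-1 and NF-E2 core (TGACTCA or TGAGTCA) was present in 0 of 11, against 4.95% of all windows. The genes were picked by name as NRF2, KEAP1 and known targets, so the share is a description, and known enhancers of several of them lie outside windows of this length. Of the 6 matches in these windows, 3 are shown, 1 for each gene with a match. They are given 5′ to 3′ along the gene with the core, or its reverse complement, in capitals and 10 bases on each side. The first lies 34 bases upstream of the RefSeq GCLM start (chr1:93909456-93909464, minus strand gene), the next 99 bases upstream of a TXNRD1 start (chr12:104215680-104215688, plus strand gene), and the last 31 bases upstream of a KEAP1 start (chr19:10502794-10502802, minus strand gene). The deposited gene location of GCLM reaches further, to chr1:93909456, which is a base of its match.
GCLM: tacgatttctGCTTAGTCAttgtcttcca
TXNRD1: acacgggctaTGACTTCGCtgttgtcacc
KEAP1: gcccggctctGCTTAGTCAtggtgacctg

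GCLC and GCLM encode the 2 subunits of glutamate cysteine ligase and changed by different amounts in the libraries, so the 250 bases upstream of each are given whole, with the core in capitals where present. The GCLM window (chr1:93909431-93909680, minus strand) holds 1 match, has a GC content of 72.4% and overlaps annotated exon in 26 bases next to the start. The GCLC window (chr6:53545102-53545351, minus strand) holds no match, has a GC content of 60.8% and overlaps no exon. It lies before a RefSeq start that is inside the deposited GCLC location (chr6:53497341-53616970), not at the outer end of that location. The absence of these letters says nothing about NRF2 at GCLC, only that the core is not in this window.
GCLM: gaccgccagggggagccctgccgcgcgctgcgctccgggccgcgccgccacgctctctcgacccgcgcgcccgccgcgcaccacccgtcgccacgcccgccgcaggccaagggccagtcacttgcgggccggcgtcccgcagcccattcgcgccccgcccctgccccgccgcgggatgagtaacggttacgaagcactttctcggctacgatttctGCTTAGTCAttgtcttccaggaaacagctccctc
GCLC: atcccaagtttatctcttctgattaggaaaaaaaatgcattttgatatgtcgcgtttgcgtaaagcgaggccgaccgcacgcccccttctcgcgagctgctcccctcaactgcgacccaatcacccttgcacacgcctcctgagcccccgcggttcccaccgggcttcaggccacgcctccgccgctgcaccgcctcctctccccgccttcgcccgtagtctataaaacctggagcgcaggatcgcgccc

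The targets did not move as a block. HMOX1, which encodes the inducible heme oxygenase, and GCLC, which encodes the catalytic subunit of glutamate cysteine ligase, rose at both doses, to 2.45-fold and 1.93-fold of VEH in SLO. GCLM, the modifier subunit of the same enzyme, rose to 1.23-fold in SLO and did not pass the test in SLO ½. NQO1 and TXNRD1 fell in SLO ½ but did not pass the test in SLO, and TXN fell in SLO. The RNA of NRF2 itself did not pass the test against VEH at either dose.

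In SLO against VEH, 3 of the 9 genes rose (HMOX1, GCLM and GCLC) and 1 fell (TXN), with a gene called at a Benjamini-Hochberg adjusted p below 0.05 in edgeR's quasi-likelihood test over all tested genes. Of all tested genes 64.9% were called in this comparison (32.9% rose and 32.1% fell), so the 4 of 9 lay below that share. The CPM of the groups did not overlap for 3 of the 9 (GCLC, HMOX1 and TXN), against 66.7% of all tested genes. The 9 genes had a median log2 fold change of 0.055, against 0.014 for all tested genes. In SLO ½ against VEH, where 52.0% of genes were called (26.7% rose and 25.3% fell), 3 genes rose (KEAP1, HMOX1 and GCLC) and 2 fell (NQO1 and TXNRD1), with a median of 0.10 against 0.015. Groups did not overlap for 6 of the 9, against 58.3% of all tested genes. In SLO against SLO ½, where 41.1% were called (20.8% rose and 20.3% fell), 6 rose (NFE2L2, NQO1, HMOX1, GCLM, GCLC and TXNRD1) and 1 fell (TXN), with a median of 0.19 against −0.0015. Groups did not overlap for 6 of the 9, against 51.0% of all tested genes, and without SLO replicate 1 the count of rises was 3. The 3 comparisons share libraries in pairs and are not independent of each other.

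**Figure D1:**
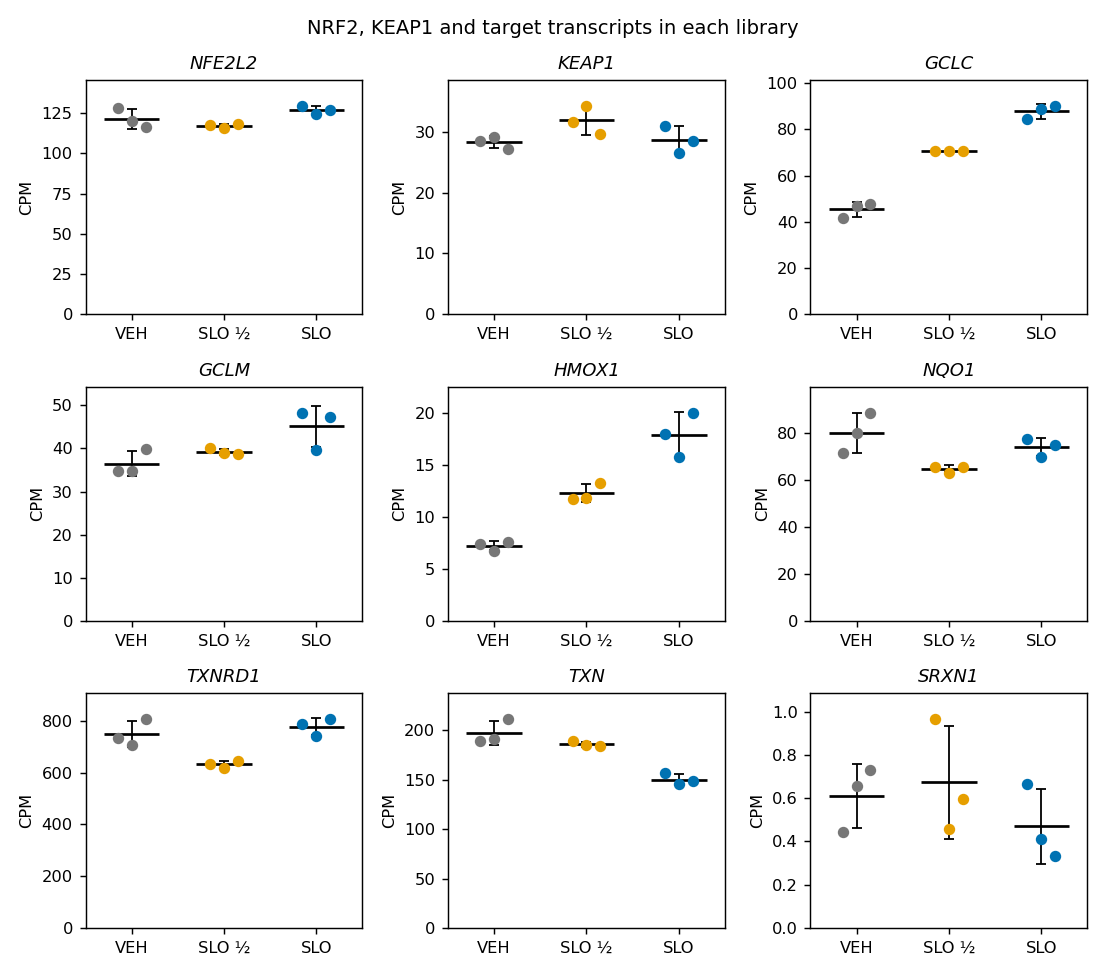
Reads scaled to library size (CPM, vertical axes from 0) of the 9 transcripts in each of the 9 libraries, with the mean (line) and SD (bars) of the 3 libraries of VEH, SLO ½ and SLO. HMOX1 and GCLC step up from VEH to SLO ½ to SLO without overlap, NQO1 and TXNRD1 are lowest in SLO ½, and TXN is lowest in SLO.

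**Figure D2:**
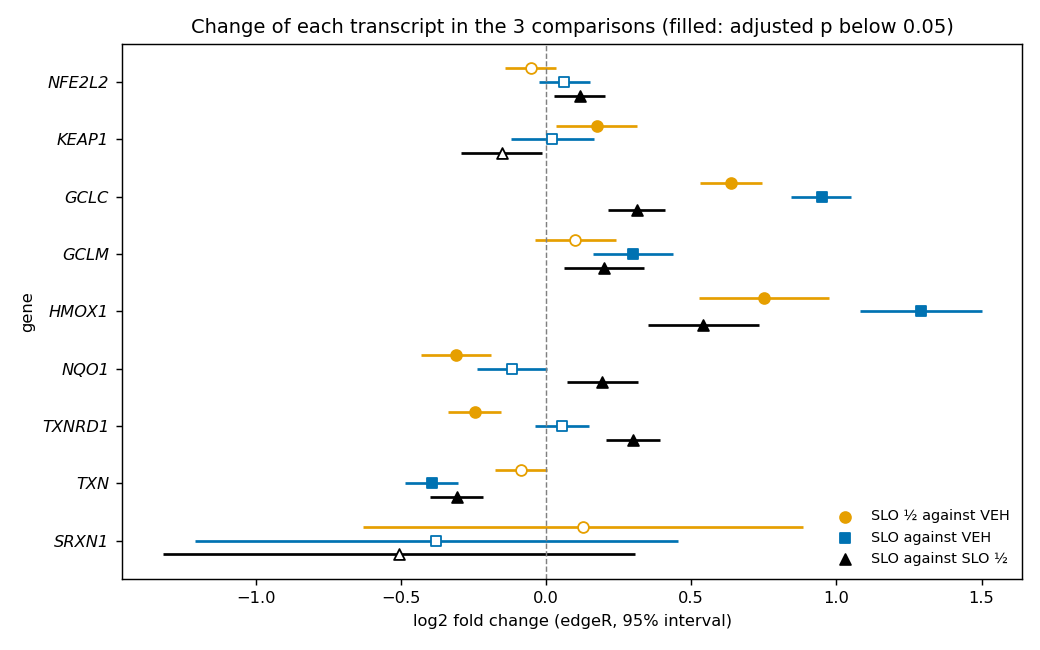
Log2 fold change of each transcript (horizontal axis) with its 95% interval for SLO ½ against VEH (circles), SLO against VEH (squares) and SLO against SLO ½ (triangles), filled where the edgeR adjusted p was below 0.05. The largest value is that of HMOX1 in SLO, 1.29, and the intervals of SRXN1 are the widest.

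NFE2L2 (ENSG00000116044.16, chr2:177227595-177392697, GRCh38) is the gene for NRF2. Its CPM, the reads scaled to library size, was 128.4, 119.9 and 116.3 in VEH, 117.4, 115.9 and 118.0 with SLO ½, and 129.5, 124.3 and 126.8 with SLO. The VEH libraries spanned nearly the whole range of the other groups, whereas every SLO library lay above every SLO ½ library. Against VEH the log2 fold change was −0.053 ± 0.043 (SE) in SLO ½ (edgeR adjusted p = 0.314) and 0.063 ± 0.043 in SLO (adjusted p = 0.201). The 95% intervals of the fold ran from 0.907 to 1.02 and from 0.983 to 1.11. Between the doses it was higher in SLO by 0.12 ± 0.043 (edgeR adjusted p = 0.0307), a call that was lost in 6 of 16 alternatives, namely without a filter on low counts and without SLO ½ replicate 1 (adjusted p = 0.0722), 2 (0.0963) or 3 (0.0657) or SLO replicate 1 (0.11) or 3 (0.0739). Of all tested genes 89.8% had a larger absolute change in SLO against VEH.

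KEAP1 (ENSG00000079999.14, chr19:10486125-10503558) encodes the adaptor that hands NRF2 to the CUL3 ligase. It stood at 28.45, 29.15 and 27.21 CPM in VEH, 31.62, 34.25 and 29.65 with SLO ½, and 30.99, 26.49 and 28.52 with SLO. The SLO ½ libraries all lay above VEH, and the SLO libraries overlapped both groups. KEAP1 rose 1.13-fold in SLO ½ (95% interval 1.02 to 1.24, edgeR adjusted p = 0.0334). This call was lost in 9 of 16 alternatives, among them DESeq2 (adjusted p = 0.101) and those without VEH replicate 1 (0.0537) or 3 (0.125) or SLO ½ replicate 1 (0.0636) or 2 (0.211). Over all 16 its adjusted p ranged from 0.00675 to 0.252. In SLO the fold ran from 0.919 to 1.12 (adjusted p = 0.796), and the sign of the log2 fold change turned when VEH replicate 3 (−0.00938) or SLO replicate 1 (−0.042) was left out. In SLO against SLO ½ it was at −0.15 ± 0.069 (SE, adjusted p = 0.0764), which passed the test without SLO ½ replicate 3 (−0.20, adjusted p = 0.0391) and also when SLO replicate 1 was left out (−0.21, adjusted p = 0.024).

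GCLC (ENSG00000001084.13, chr6:53497341-53616970) encodes the catalytic subunit of glutamate cysteine ligase, which makes the dipeptide that limits glutathione synthesis. Its CPM was 41.84, 46.74 and 47.53 in VEH, 70.63, 70.62 and 70.68 with SLO ½, and 84.27, 88.76 and 90.16 with SLO. The groups were fully separated, in the order VEH, SLO ½, SLO. GCLC rose 1.55-fold in SLO ½ (95% interval 1.44 to 1.67, edgeR adjusted p = 3.06e-11) and 1.93-fold in SLO (1.79 to 2.08, adjusted p = 1.05e-15). The step from SLO ½ to SLO was 1.24-fold (adjusted p = 5.96e-06). Of all tested genes, 13.1% had a larger absolute change in SLO against VEH, and each GCLC call was kept in all 16 alternatives.

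GCLM (ENSG00000023909.10, chr1:93885199-93909456) encodes the modifier subunit, which makes the enzyme more efficient. Its CPM was 34.73, 34.86 and 39.80 in VEH, 40.03, 38.88 and 38.81 with SLO ½, and 48.31, 39.73 and 47.34 with SLO. VEH replicate 3 reached the level of SLO ½, and SLO replicate 2 lay no higher, so all 3 groups overlapped. GCLM rose 1.23-fold in SLO (95% interval 1.12 to 1.36, edgeR adjusted p = 0.00031), and this call was kept in all 16 alternatives. In SLO ½ the fold ran from 0.973 to 1.18 (adjusted p = 0.223), and between doses it was 1.15-fold higher in SLO (adjusted p = 0.0172). The last call was lost in 5 of 16 alternatives, including those without SLO ½ replicate 2 (adjusted p = 0.0545) or 3 (0.0548) or SLO replicate 1 (0.124) or 3 (0.0948). The ratio of GCLC to GCLM within a library, taken from TPM, was 0.759, 0.844 and 0.752 in VEH, 1.11, 1.14 and 1.15 with SLO ½, and 1.10, 1.41 and 1.20 with SLO. By TPM, GCLC RNA was thus the less abundant of the pair in every VEH library and the more abundant in every treated one. Without scaling for length GCLC had more reads than GCLM in VEH too (41.84, 46.74 and 47.53 CPM). The order in VEH therefore rests on the gene lengths behind the TPM, which were not tested.

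HMOX1 (ENSG00000100292.18, chr22:35380361-35394214) encodes heme oxygenase 1, which opens heme to biliverdin, iron and carbon monoxide. Its CPM was 7.365, 6.762 and 7.625 in VEH, 11.75, 11.78 and 13.24 with SLO ½, and 17.92, 15.72 and 20.01 with SLO. The groups did not overlap. HMOX1 rose 1.68-fold in SLO ½ (95% interval 1.44 to 1.96, edgeR adjusted p = 1.27e-06) and 2.45-fold in SLO (2.12 to 2.84, adjusted p = 6.1e-12), and was 1.46-fold higher in SLO than in SLO ½ (adjusted p = 2.64e-05). These calls were kept in all 16 alternatives, and 7.46% of tested genes had a larger absolute change in SLO against VEH.

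NQO1 (ENSG00000181019.13, chr16:69706996-69726668) encodes a quinone reductase that is widely read as a marker of NRF2 activity. It stood at 71.37, 79.96 and 88.68 CPM in VEH, 65.40, 63.01 and 65.71 with SLO ½, and 77.49, 69.69 and 74.94 with SLO. The SLO ½ libraries were the lowest and lay under both other groups, and VEH spanned the SLO values save for the lowest. NQO1 fell to 0.807-fold in SLO ½ (95% interval 0.742 to 0.877, edgeR adjusted p = 5.94e-05). In SLO the log2 fold change was −0.12 ± 0.058 (SE, adjusted p = 0.0819), and it passed the test in 3 of 16 alternatives, among them those without VEH replicate 1 (−0.20, adjusted p = 0.00244) and without SLO replicate 1 (−0.15, adjusted p = 0.0419). NQO1 was higher in SLO than in SLO ½ by 0.19 ± 0.059 on the log2 scale (adjusted p = 0.00955). This call was lost in 2 of 16 alternatives, without SLO replicate 1 (0.16, adjusted p = 0.0608) and by limma on all genes above 0 TPM (0.23, adjusted p = 0.115).

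TXNRD1 (ENSG00000198431.17, chr12:104215779-104350307) encodes the cytosolic selenoenzyme that recharges thioredoxin with electrons from NADPH. Its CPM was 733.7, 708.0 and 806.3 in VEH, 632.0, 619.9 and 644.0 with SLO ½, and 789.1, 740.6 and 806.1 with SLO. It was lowest in the SLO ½ libraries, without overlap, and VEH and SLO overlapped. TXNRD1 fell to 0.843-fold in SLO ½ (95% interval 0.791 to 0.899, edgeR adjusted p = 3.91e-05) and was 1.23-fold higher in SLO than in SLO ½ (adjusted p = 3.55e-06). In SLO against VEH the fold ran from 0.974 to 1.11 (adjusted p = 0.292), and it passed the test when libraries were scaled by size alone (log2 fold change 0.13, adjusted p = 0.011) and without VEH replicate 3 (0.11, adjusted p = 0.0375).

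TXN (ENSG00000136810.13, chr9:110243810-110256507) encodes cytosolic thioredoxin, the substrate of TXNRD1 that reduces disulfides in other proteins. It stood at 189.3, 191.4 and 211.1 CPM in VEH, 189.0, 185.0 and 184.1 with SLO ½, and 156.8, 145.3 and 148.7 with SLO. Every SLO library lay below every other library. TXN fell to 0.761-fold in SLO (95% interval 0.714 to 0.81, edgeR adjusted p = 6.7e-09) and was at 0.807-fold in SLO against SLO ½ (adjusted p = 1.83e-06). In SLO ½ against VEH the log2 fold change was −0.086 ± 0.043 (adjusted p = 0.0998), which passed the test without VEH replicate 1 (−0.12, adjusted p = 0.0362). TXN and TXNRD1 thus went different ways from SLO ½ to SLO. The TPM ratio of TXN to TXNRD1 was 1.71, 1.80 and 1.74 in VEH, 1.99, 1.98 and 1.90 with SLO ½, and 1.32, 1.30 and 1.23 with SLO, with no overlap between groups.

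SRXN1 (ENSG00000271303.2, chr20:646615-653200) encodes sulfiredoxin, which repairs overoxidized peroxiredoxins. It was counted at 7, 10 and 14 reads in VEH, 17, 8 and 10 with SLO ½, and 11, 7 and 5 with SLO, and the groups overlapped. No difference was detectable at this depth: the 95% interval of the fold was 0.646 to 1.85 in SLO ½ (edgeR adjusted p = 0.795) and 0.432 to 1.37 in SLO (adjusted p = 0.425). In the GENCODE v44 annotation 2292 of its 2528 exonic bases (90.7%) also belong to a read-through gene on the same strand, ENSG00000270299, which had 0 reads in all libraries. Reads that match more than 1 gene were not counted, so these SRXN1 counts rest on its remaining 236 bases and are no measure of its true level. The other genes share between 0% and 6.14% of their exonic bases with another gene on the same strand, NFE2L2 apart, whose limits in this annotation differ from those in the files, so that no share is given for it.

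On a scale that allows for gene length, TXN was the most abundant of the set in every group, at 919.2 ± 59.7 TPM in VEH, 841.9 ± 19.5 with SLO ½ and 696.3 ± 28.2 with SLO (SD, n = 3). TXNRD1 followed at 525.4, 430.5 and 543.1 TPM, then NQO1 at 126.7, 99.56 and 116.6, and NFE2L2 at 100.8, 94.35 and 104.7. NQO1 and NFE2L2 overlapped in SLO ½. In VEH the order went on with KEAP1 (37.22 TPM), GCLM (31.62), GCLC (24.78) and HMOX1 (14.79). In SLO it was GCLC (47.65), GCLM (38.93), KEAP1 (37.56) and HMOX1 (36.30), of which the last 3 overlapped. HMOX1 thus had the largest change from the lowest level, SRXN1 apart. The ratio of NFE2L2 to KEAP1 was 2.71 ± 0.127 in VEH, 2.33 ± 0.189 with SLO ½ and 2.80 ± 0.162 with SLO, lowest in SLO ½, where all 3 libraries lay below the other groups.

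**Figure D3:**
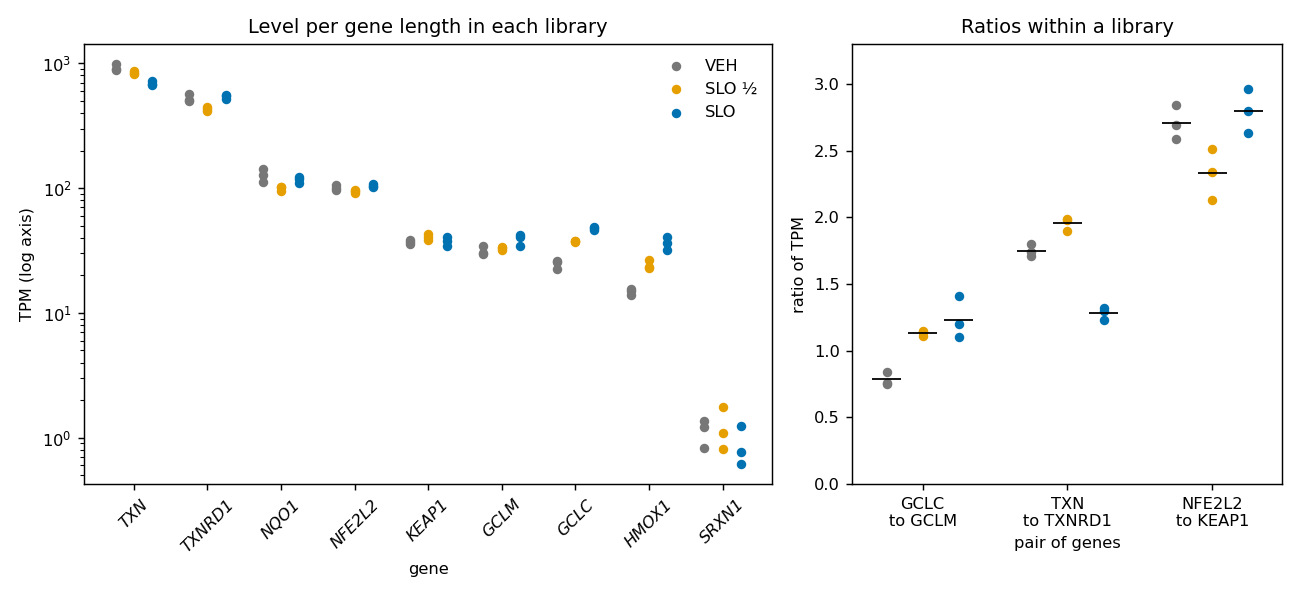
Left, TPM of the 9 genes in each library on a log axis, ordered by their VEH level, and right, the ratio of TPM of 3 gene pairs within each library, with lines at the group means. By TPM, GCLC passes GCLM from VEH to both treated groups, an order in VEH that depends on the gene lengths used. The ratio of TXN to TXNRD1 is lowest in SLO, at 1.28 ± 0.0505 against 1.75 ± 0.042 in VEH (SD, n = 3).

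The partners and regulators of NRF2 moved in both directions. Of 16 measured, 7 rose and 5 fell in SLO, where 32.9% of all tested genes rose and 32.1% fell, and 5 rose and 4 fell in SLO ½, where these shares were 26.7% and 25.3%. The medians were 0.065 and −0.037. The 4 falls in SLO ½ became 2 when libraries were scaled by size alone and 7 by limma on log2(TPM + 1). SQSTM1, the autophagy receptor that binds KEAP1, rose from 135.6 ± 0.853 CPM in VEH to 177.4 ± 5.41 with SLO ½ and 190.4 ± 4.76 with SLO (edgeR adjusted p = 3.11e-09 and 9.5e-12). CUL3, the scaffold of the ligase that tags NRF2, fell from 203.6 ± 7.64 to 163.0 ± 4.34 and 151.1 ± 5.34 CPM (adjusted p = 1.67e-07 and 3.48e-10). BACH1, the repressor at antioxidant response elements, fell from 172.5 ± 6.99 to 126.2 ± 3.13 and 132.1 ± 4.36 CPM (adjusted p = 4.54e-10 and 4.15e-09). The small MAF partners differed among themselves. MAFG rose in both treated groups, by 0.23 in SLO ½ and 0.21 in SLO on the log2 scale (adjusted p = 0.000336 and 0.000971). MAFK rose in SLO by 0.42 (adjusted p = 0.000243) with a value of 0.21 in SLO ½ (adjusted p = 0.0705), called there without VEH replicate 1 (0.29, adjusted p = 0.0171) or SLO ½ replicate 1 (0.30, adjusted p = 0.0136). MAFF fell in SLO by 0.46 (adjusted p = 2.05e-05) with a value of 0.037 in SLO ½ (adjusted p = 0.716).

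Most tested glutathione genes were called in the upward direction in SLO, in a list drawn up with earlier results of these data known. Of 25 genes 24 were tested, of which 15 rose and 2 fell in SLO with a median log2 fold change of 0.39, and 12 rose and 2 fell in SLO ½ with a median of 0.19, beside medians of 0.014 and 0.015 over all tested genes, of which 32.9% rose in SLO and 26.7% in SLO ½. Falls were called for 32.1% of all tested genes at the full dose and 25.3% at the lower one. Counting both directions, 64.9% and 52.0% of all tested genes were called. Of the 24 glutathione genes, 7 had no call in SLO and 10 had none in SLO ½. The 2 falls of this list in SLO ½ became 1 with DESeq2 and without VEH replicate 2 or SLO ½ replicate 2. GPX3, an extracellular glutathione peroxidase, rose from 21.49 ± 0.984 CPM in VEH to 34.05 ± 0.917 with SLO ½ and 44.40 ± 1.45 with SLO (edgeR adjusted p = 7.4e-10 and 7.92e-15). GSTK1, a glutathione transferase, rose from 29.82 ± 1.89 to 46.05 ± 1.86 and 57.19 ± 2.89 CPM (adjusted p = 9.96e-10 and 4.47e-14). SLC7A11, the cystine importer that feeds glutathione synthesis, is named here after its values were seen. It stood at 32.76, 36.83 and 27.26 CPM in VEH, 26.29, 24.47 and 28.57 with SLO ½, and 39.29, 45.62 and 50.20 with SLO. All SLO libraries were above all others, and VEH and SLO ½ overlapped. It rose by 0.49 in SLO (adjusted p = 1.13e-05) and fell by 0.28 in SLO ½ on the log2 scale (adjusted p = 0.0106), the latter call being lost in 4 of 16 alternatives, among them those without VEH replicate 2 (−0.18, adjusted p = 0.0996) and without SLO ½ replicate 2 (−0.23, adjusted p = 0.0678).

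The thioredoxin and peroxiredoxin list was mixed, with 7 of 17 genes up and 4 down in SLO, against 32.9% and 32.1% of all tested genes, and 6 up and 3 down in SLO ½, against 26.7% and 25.3%. The rises numbered 4 in SLO without a filter on low counts, and 2 in SLO ½ by limma on all genes above 0 TPM. NXN (nucleoredoxin) rose from 106.4 ± 4.25 CPM in VEH to 123.1 ± 0.712 with SLO ½ and 153.6 ± 2.81 with SLO (edgeR adjusted p = 0.000109 and 3.61e-12). PRDX3, the mitochondrial peroxiredoxin, fell from 228.7 ± 14.0 to 198.3 ± 4.18 and 168.3 ± 5.58 CPM (adjusted p = 0.000205 and 5.55e-10). Of 7 genes of NADPH supply, 3 rose and 3 fell in SLO (all tested genes: 32.9% and 32.1%), and 0 rose and 3 fell in SLO ½ (26.7% and 25.3%). In SLO ½ 1 gene rose with library size scaling, with a minimum of 10 counts in every library and in the fit of only the 2 groups. TKT, of the non-oxidative branch of the pentose phosphate pathway, fell from 279.3 ± 5.90 CPM to 217.2 ± 3.34 and 181.1 ± 6.39 (adjusted p = 7.03e-09 and 4.02e-14).

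Of 11 heme and iron genes, 6 rose and 0 fell in SLO, so that fewer were called than the 64.9% of all tested genes, though more rose than the 32.9%. In SLO ½ 5 rose and 0 fell, against 52.0% called and 26.7% risen over all tested genes. A fall of 1 gene was called in SLO without VEH replicate 1 and in SLO ½ without VEH replicate 2. FTH1, the ferritin heavy chain that stores iron, rose from 330.2 ± 11.8 CPM in VEH to 495.4 ± 8.34 with SLO ½ and 604.1 ± 3.95 with SLO (edgeR adjusted p = 4.12e-13 and 1.5e-17). It has many processed pseudogenes, and reads that match several places were not counted. SLC48A1, a heme transporter, rose from 9.308 ± 0.302 to 13.64 ± 1.51 and 18.99 ± 1.06 CPM (adjusted p = 2.15e-05 and 8.98e-11).

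Among 21 further genes known as NRF2 targets, 14 were tested, of which 4 rose and 5 fell in SLO, and 5 rose and 4 fell in SLO ½. The 9 of 14 called in each lay near the 64.9% of all tested genes in SLO and above the 52.0% in SLO ½. With library size scaling the falls numbered 3 in SLO and 2 in SLO ½, without SLO ½ replicate 1 they numbered 2 in SLO ½, and by limma on all genes above 0 TPM the rises in SLO ½ numbered 3. EPHX1, an epoxide hydrolase, rose from 29.84 ± 0.471 CPM in VEH to 39.76 ± 2.10 with SLO ½ and 70.97 ± 4.15 with SLO (edgeR adjusted p = 1.66e-06 and 2.71e-17). ABCC3, an exporter of conjugates, rose from 1.687 ± 0.484 to 3.947 ± 0.515 and 6.965 ± 0.751 CPM (adjusted p = 5.96e-06 and 4.28e-11). Named after their values were seen, OSGIN1 rose from 1.312 to 3.094 and 3.416 CPM (adjusted p = 1.42e-05 and 1.42e-06). The exporter ABCC4 fell from 41.80 to 25.69 and 25.01 CPM (adjusted p = 1.69e-09 and 2.9e-10), and PIR fell from 1.710 to 0.6208 and 0.8723 CPM (adjusted p = 0.00018 and 0.00387). The aldo-keto reductase genes AKR1B10, AKR1C1, AKR1C2 and AKR1C3, also named after their values were seen, did not pass the filter, with at most 6 reads in any library. AKR1C1, AKR1C2 and AKR1C3 are close paralogs, and reads shared among them were not counted.

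Superoxide dismutase and catalase genes gave 2 rises and 1 fall among 4 tested in SLO, where 64.9% of all tested genes were called, and 3 rises and 0 falls in SLO ½, where 52.0% were. The fall was that of catalase, CAT (−0.14, edgeR adjusted p = 0.0173), named after its value was seen, and it was lost with library size scaling and without SLO replicate 2 or 3. By limma on log2(TPM + 1) 1 fall was called in SLO ½. SOD2, the mitochondrial superoxide dismutase, stood at 86.51 ± 3.39 CPM in VEH, 124.9 ± 3.51 with SLO ½ and 127.7 ± 6.50 with SLO (edgeR adjusted p = 1.04e-10 and 1.08e-11), and CCS, the copper chaperone of SOD1, at 12.66 ± 1.63, 17.44 ± 1.74 and 20.07 ± 0.225 (adjusted p = 0.000107 and 2.49e-07). Of 11 NADPH oxidase genes 3 were tested, and 2 rose and 1 fell in SLO, too few to read against the 64.9% of all tested genes. The fall, that of NOX4 (−0.41, edgeR adjusted p = 0.0404, groups overlapping, named after its value was seen), was lost in 11 of 16 alternatives, among them DESeq2 and those without VEH replicate 1 or 2 or SLO replicate 1 or 3. CYBA, a membrane subunit, rose from 43.50 ± 3.12 to 62.93 ± 2.84 and 59.20 ± 3.97 CPM (adjusted p = 1.04e-08 and 1.55e-07). Over the 8 lists, 96 genes of 113 were tested, and 46 rose and 21 fell in SLO (69.8% called, against 64.9% of all tested genes), while 38 rose and 16 fell in SLO ½ (56.2%, against 52.0%).

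**Figure D4:**
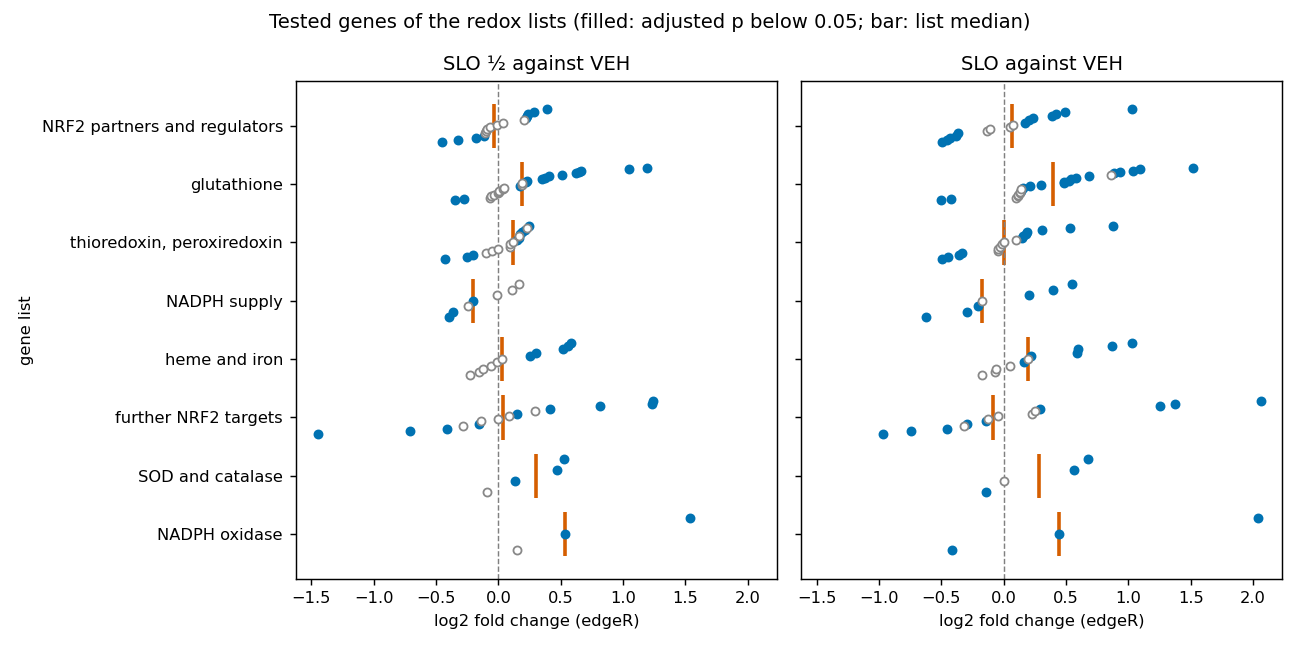
Log2 fold change of every tested gene of the 8 lists of redox genes (rows) in SLO ½ against VEH (left) and SLO against VEH (right), filled where the edgeR adjusted p was below 0.05, with the list median as a bar. The glutathione genes lie mostly to the right of 0, with a median of 0.39 in SLO, whereas regulators and further NRF2 targets lie on both sides.

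The transcripts whose log2 CPM followed these genes most closely over the 9 libraries were sought among 10875 genes, as a description, since all points share the same 3 groups. For HMOX1 they were TIPARP (Pearson r = 0.995), TUB (0.994) and KLF5 (0.994), with KLF5 at 19.0, 34.3 and 49.6 CPM in VEH, SLO ½ and SLO. For NQO1 they were MEST (0.962), VRK2 (0.950) and THUMPD3 (0.948), of which MEST stood at 326, 264 and 312 CPM, lowest in SLO ½ like NQO1. For NFE2L2 they were WDR41 (0.955), PCMTD1 (0.949) and EHD2 (0.942).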

How the data were processed

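Polyadenylated RNA of 9 HMC3 libraries was sequenced. Per the labels, the authors used Trimmomatic 0.38 for trimming and STAR 2.7.1a with GRCh38, and deposited whole counts per gene, not normalized, and TPM, scaled for gene length and library size. The annotation release is not given in the sources used here. Lines without a gene were left out (unmapped 0.883% to 0.984% of reads, multimapping 7.16% to 8.52%, outside genes 5.54% to 8.38%, ambiguous 3.03% to 3.26%).

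The count analysis used edgeR 4.0.16 (R 4.3.3): filterByExpr with a minimum count of 10 (14727 genes kept), TMM scaling (0.968 to 1.035), a quasi-likelihood fit of the 3 groups over 9 libraries, and Benjamini-Hochberg adjustment over all tested genes (call: adjusted p below 0.05). CPM are TMM-scaled. Errors are SD of 3 libraries or SE of the log2 fold change, derived from its F statistic. The fit was also run on simulated data with few changed genes, balanced in direction. That setting is unlike these libraries, so the run does not bear on the choice of scaling. Alternatives used DESeq2 1.42.0, limma 3.58.1 on log2(TPM + 1) or log2(TPM + 0.1), other scalings and filters, only the 2 groups compared, a replicate block, and leaving out each library. They number 16 for each gene and comparison, fewer where a setting gives no value.

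Members and lists were chosen with earlier results of these data known. Named pathway genes are the 2 of each list whose p was smallest between SLO and VEH, and 6 regulators. Those named outside this rule are marked as such. Some genes that the rule names are not reported here. Likeness is Pearson's r over genes with average log2 CPM of at least 2, for 3 genes each. Sequences are from RefSeq (GRCh38.p14) and exons from GENCODE v44. No label names a batch.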

Additional observations from a re-analysis of the deposited data

Results flagged for a closer look

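The fitted direction differed between the 2 doses, with a difference between SLO and SLO ½ that passed edgeR's test, for 2 of the 9 genes and 17 of the 96 tested genes of the pathway lists. Of those named in the report they were TXNRD1, NFE2L2, SLC7A11, MAFF and NOX4. The share of all tested genes with both features was not counted, so these counts cannot be read as particular to these genes. Of all tested genes 41.1% were called between the doses. TXNRD1 was at −0.25 in SLO ½ and 0.055 in SLO on the log2 scale against VEH, a difference of 0.301 (adjusted p = 3.55e-06), of which only the SLO ½ value was called. SLC7A11 was at −0.28 and 0.49, a difference of 0.767 (adjusted p = 3.24e-08), with both values called. Its call in SLO ½ was lost in 4 of 16 alternatives, among them DESeq2 (adjusted p = 0.0819). NFE2L2 was at −0.053 and 0.063, a difference of 0.116 (adjusted p = 0.0307), with neither value called against VEH. MAFF was at 0.037 and −0.46, a difference of −0.492 (adjusted p = 1.6e-05), with only the SLO value called, and the sign of its SLO ½ value depended on the setting. NOX4 was at 0.15 and −0.41, a difference of −0.564 (adjusted p = 0.00879), with only the SLO value called. The difference was not called without SLO ½ replicate 3, without SLO replicate 1 or by limma on all genes above 0 TPM. Its SLO call against VEH was lost in most alternatives.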

How the results depend on the processing

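Among the 428 values of the 9 genes under alternatives, 393 kept their direction and side of the threshold, 22 lost a call, 9 gained one and 4 reversed. Among 1008 values of the named pathway genes, 961 kept both, 20 lost a call, 17 gained one and 10 reversed. Scaling by library size alone raised the count of members that rose in SLO from 3 to 5, adding NFE2L2 (0.14, adjusted p = 0.00536) and TXNRD1, and shifted the median of all genes to 0.089. Without an expression filter 2 members fell in SLO in place of 1. With limma on log2(TPM + 1) of all genes above 0, 11 pathway genes fell in SLO against SLO ½ in place of 19. Leaving out 1 library gave 1 to 2 members that fell in SLO against VEH (2 without VEH replicate 1 or SLO replicate 1), 1 to 2 that fell in SLO against SLO ½ (2 without SLO ½ replicate 3 or SLO replicate 1) and 3 to 6 that rose in it (3 without SLO replicate 1). Reversed values were not called under the alternative. They were KEAP1 in SLO (−0.00938 without VEH replicate 3, −0.042 without SLO replicate 1, highest 0.0782), SRXN1 in SLO ½ (−0.049 without VEH replicate 1, −0.23 without SLO ½ replicate 1, highest 0.344), MAFF in SLO ½ (−0.000929 by limma on log2(TPM + 1), −0.000952 on log2(TPM + 0.1), −0.033 without VEH replicate 2, −0.010 without SLO ½ replicate 1, highest 0.0896), MAFG in SLO against SLO ½ (0.0067, 0.0068 and, without SLO replicate 2, 0.0050, lowest −0.0694) and SOD2 in SLO against SLO ½ (−0.0050 without SLO replicate 1, highest 0.0708), where highest and lowest are over the fits that leave out 1 library. The cause of these changes was not tested. With the replicate number as a block, 3 members rose and 1 fell in SLO, as without it, and no count of members called changed in the 3 comparisons. The deviations of libraries from their group means had r of 0.0028 to 0.087 for the same number and −0.062 to 0.037 for other numbers. These weak values cannot show whether the numbers pair the libraries. SRXN1 had no value where at least 10 counts were asked of every library. Of 768 counts of called genes in single pathway lists, 59 moved by over 1.5 times.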
